A study of Danio rerio with 6 samples.

Results

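AP-1 is a transcription factor made of pairs of Fos and Jun proteins, which hold each other through leucine zippers and grip DNA with neighbouring basic regions. Fos proteins bind DNA only with a partner such as Jun, whereas Jun proteins can also pair with themselves. Many of these genes, together with the zinc finger gene egr1, are immediate-early genes, switched on within minutes of growth factor, neuronal or stress signals through MAP kinases and serum response factor. In zebrafish, AP-1 genes are known for their part in wound repair and regeneration, and fosab and egr1 are widely used as marks of neuronal activity.

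The 10 genes described here are 4 Fos genes (fosl1a, fosl2, fosab, fosb), 4 Jun genes (junba, junbb, jun, jund), the related stress gene atf3, and egr1. They were picked by gene symbol from the 32057 genes of the deposited table, and all 10 were found once each. The choice was made with their values in 6PPD and DMSO heads already known, so those values are a description and carry no test.

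Exposed embryos were kept in 500 µg/L 6PPD, an antioxidant of tire rubber, from 10 hours post-fertilization (hpf) to 2 days post-fertilization (dpf), and control embryos were kept in the solvent DMSO. All embryos also received the pigment inhibitor PTU at 0.003% from 24 hpf and were raised at first in egg water with methylene blue. Heads were dissected at 2 dpf and pooled by 150 into each of 3 replicates per group, giving 6 poly(A) RNA libraries. The labels call the replicates biological but do not say whether they came from separate clutches, so p-values measure the spread between these pools only.

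Levels are in FPKM, a scale that divides fragments by gene length and by the size of the library and so allows genes to be compared within a library. The FPKM of a library summed to 434258 to 472121, and 23653 to 24380 genes were above 0. The depth is unknown: at the best of many trial depths, 28.0% to 29.1% of low values lay within 0.1 of a whole fragment. For arbitrary values the share is 20% at a single fixed depth. The best of many depths can exceed this for arbitrary values too, so no depth is read from it. The tissue is labelled brain, but the sampled heads also held skin and blood: the summed FPKM of 30 periderm and epidermis markers was 6028 to 7571 in 6PPD and 6897 to 11900 in DMSO libraries, and that of 20 neuron markers 2100 to 2313 in 6PPD and 1872 to 2065 in DMSO libraries. In such bulk samples, fewer cells of a type and less RNA per cell cannot be told apart.

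In 6PPD heads 7 of the 10 genes were lower in every library than in any DMSO library: fosl1a, fosl2, fosab, atf3, junba, junbb and egr1. Of all tested genes, 9.18% had all 6PPD libraries below all DMSO libraries and 17.1% had them above. The genes jun and jund were not lower, and fosb was close to the limit of measurement. Differences between groups were fitted with limma on log2(FPKM + 1) over the 15320 genes that averaged 1 FPKM or more, and a gene is called when its Benjamini-Hochberg adjusted p is under 0.05. Of the 10 genes 9 passed the filter and 5 of these were called lower, fosl1a, fosab, atf3, junba and junbb, where 1.15% of all tested genes were called lower and 3.41% in either direction. Since the genes were picked with this contrast known, nothing is read from these counts.

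**Figure D1:**
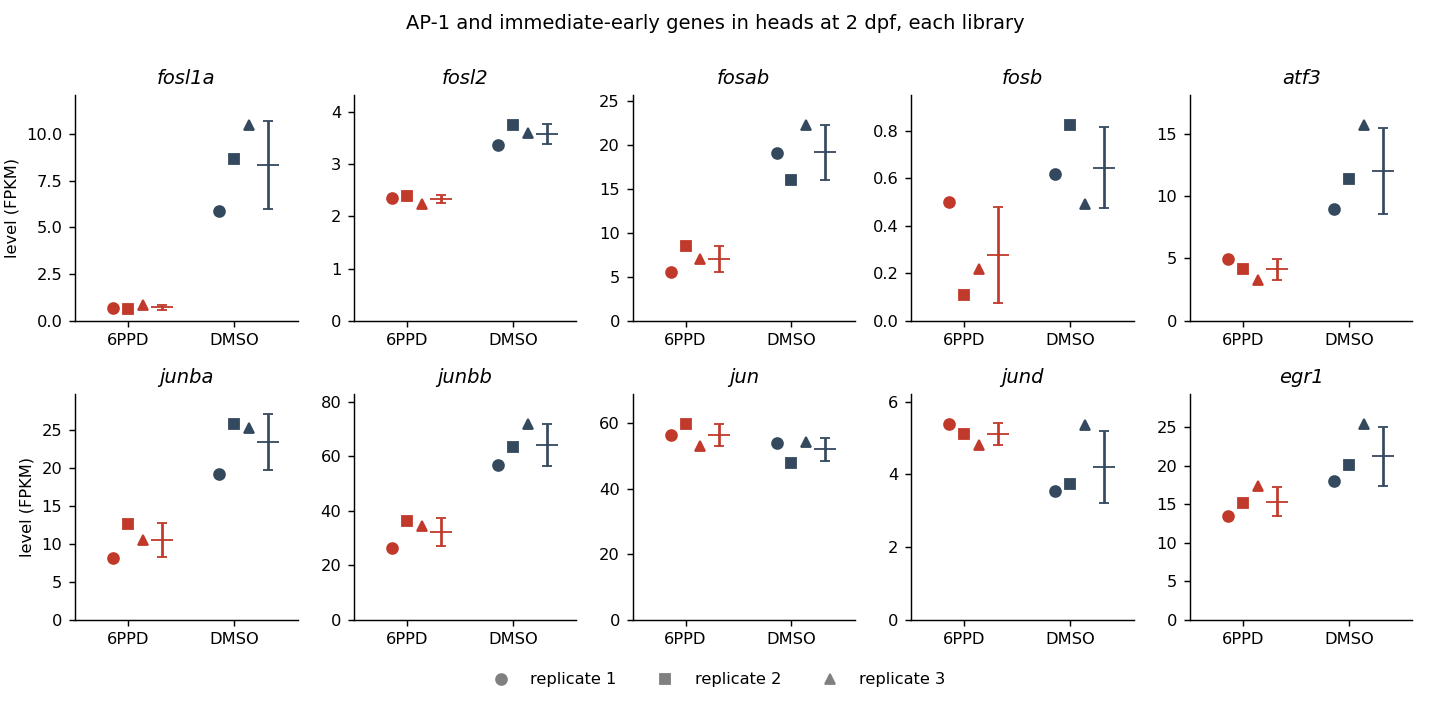
Level of each of the 10 genes in FPKM (vertical axes, each from 0) in the 3 libraries from 6PPD heads and the 3 from DMSO heads; bars are mean ± SD. The points of 7 genes lie apart between the groups, whereas those of jun, jund and fosb overlap.

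Among the Fos genes, fosl1a stood apart. It encodes Fra-1, a Fos protein that in mammals lacks the strong activation domain of c-Fos and is prominent in epithelial and migrating cells. The level of fosl1a was 0.691, 0.600 and 0.840 FPKM in the 6PPD libraries, against 5.86, 8.63 and 10.5 FPKM in the DMSO libraries. The groups were far apart, since the highest 6PPD value was below 1 FPKM and the lowest DMSO value above 5. Its mean was 11.7-fold lower in 6PPD heads, and its log2 fold change on the FPKM + 1 scale, which compresses such low levels, was -2.42 ± 0.18 (SE). It passed the filter through its DMSO level. The gene (ENSDARG00000015355) lies on the minus strand of chromosome 14 in GRCz11, from base 30739476 to 30747686.

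The gene fosab is the zebrafish form of c-Fos, the best known immediate-early gene. It measured 5.55, 8.46 and 7.06 FPKM in the 6PPD libraries, against 19.1, 16.0 and 22.3 FPKM in the DMSO libraries. The highest 6PPD library, replicate 2, stood under the lowest control, DMSO replicate 2. The mean was 2.73-fold lower in 6PPD heads (log2 fold change -1.33 ± 0.15, SE). The gene (ENSDARG00000031683) is on the minus strand of chromosome 20, bases 46552311 to 46554440. A pair of gene models on the other strand overlap it, the bZIP gene si:ch211-153j24.3 (0.416 to 1.25 FPKM over all libraries) and the antisense model AL929435.1 (at most 0.191 FPKM). The library kit keeps strand, but the labels do not say if the counting made use of it.

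The gene fosl2 encodes Fra-2, which is close to Fra-1 and in mammals acts in bone and skin. Its level was 2.36, 2.40 and 2.24 FPKM in the 6PPD libraries, against 3.38, 3.76 and 3.60 FPKM in the DMSO libraries. Both groups were tight, with a coefficient of variation of 3.60% in 6PPD and 5.41% in DMSO, and they did not overlap. The mean was 1.53-fold lower in 6PPD heads (log2 fold change -0.46 ± 0.11, SE). This relative difference was smaller than those of fosl1a and fosab.

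The fourth Fos gene, fosb, encodes a neuronal and stress-responsive family member. It stood at 0.500, 0.108 and 0.219 FPKM in the 6PPD libraries, against 0.619, 0.826 and 0.489 FPKM in the DMSO libraries. The groups overlapped, as 6PPD replicate 1 lay above DMSO replicate 3. With a mean under 1 FPKM in both groups it did not pass the filter.

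The gene atf3 encodes a stress-inducible bZIP protein that pairs with Jun and in mammals often represses its targets. Its level was 4.96, 4.15 and 3.28 FPKM in the 6PPD libraries, against 8.93, 11.3 and 15.7 FPKM in the DMSO libraries. The groups did not overlap, and the DMSO libraries were the more spread, with a coefficient of variation of 28.7% in DMSO beside 20.4% in 6PPD. Its mean was 2.90-fold lower in 6PPD heads (log2 fold change -1.32 ± 0.19, SE).

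The Jun genes divided into a pair that was lower and a pair that was not. JunB is encoded in zebrafish by the paralogs junba and junbb, and in mammals it is the inducible Jun that restrains c-Jun in several settings. The level of junbb was 26.5, 36.2 and 34.4 FPKM in the 6PPD libraries, against 57.0, 63.5 and 72.0 FPKM in the DMSO libraries. Its paralog junba measured 8.21, 12.7 and 10.5 FPKM in the 6PPD libraries, against 19.2, 25.8 and 25.2 FPKM in the DMSO libraries. Neither gene overlapped between groups, and their relative differences were close, 1.98-fold lower for junbb and 2.24-fold lower for junba (log2 fold changes -0.97 ± 0.13 and -1.10 ± 0.16, SE). Reads shared by the paralogs could have been divided between them, and how alike the copies are was not measured. In GRCz11, junbb (ENSDARG00000104773) is on chromosome 3, bases 7654655 to 7656059, and junba (ENSDARG00000074378) is on chromosome 1, bases 51732979 to 51734535.

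The gene jun encodes c-Jun, the main target of the Jun N-terminal kinases. It measured 56.3, 59.8 and 52.9 FPKM in the 6PPD libraries, against 53.9, 47.9 and 54.1 FPKM in the DMSO libraries. The ranges overlapped, and the log2 fold change was 0.12 with a 95% interval of -0.07 to 0.30. The fourth Jun gene, jund, encodes the Jun protein that mammalian cells make most constantly. It was at 5.40, 5.12 and 4.81 FPKM in the 6PPD libraries, against 3.54, 3.75 and 5.35 FPKM in the DMSO libraries, where DMSO replicate 3 lay inside the 6PPD range. Its log2 fold change was 0.24 with a 95% interval of -0.08 to 0.57.

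The gene egr1 encodes a zinc finger factor that is not part of AP-1 but answers the same signals through serum response factor. It measured 13.5, 15.2 and 17.3 FPKM in the 6PPD libraries, against 18.0, 20.1 and 25.5 FPKM in the DMSO libraries. The groups were adjacent without overlapping, with 6PPD replicate 3 just under DMSO replicate 1. The mean was 1.38-fold lower in 6PPD heads (log2 fold change -0.43 ± 0.13, SE), a smaller relative difference than in fosab.

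These differences changed the order of the genes by level. In 6PPD heads the order from high to low was jun, junbb, egr1, junba, fosab, jund, atf3, fosl2, fosl1a and fosb, where the ranges of junba and fosab and those of jund and atf3 overlapped. In DMSO heads it was junbb, jun, junba, egr1, fosab, atf3, fosl1a, jund, fosl2 and fosb. There the ranges of junba, egr1 and fosab overlapped one another, as did those of atf3 and fosl1a and those of jund and fosl2. Thus jun had the highest level in 6PPD heads and junbb in DMSO heads, and fosl1a was ninth in 6PPD heads and seventh in DMSO heads.

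The summed level of 6 Fos genes, with fosaa and fosl1b added to the 4 above and the Fos-type gene fosl2l left out, was 10.5, 12.7 and 11.3 FPKM in the 6PPD libraries, against 30.6, 30.4 and 38.3 FPKM in the DMSO libraries. The 4 Jun genes, with the Jun-type gene june left out, summed to 96.4, 114 and 103 FPKM in the 6PPD libraries, against 134, 141 and 157 FPKM in the DMSO libraries. Both sums were lower without overlap, the Fos sum by 2.88-fold and the Jun sum by 1.38-fold. For every 100 FPKM of Jun transcripts there were 11.0 ± 0.174 FPKM of Fos transcripts in 6PPD heads and 23.0 ± 1.45 FPKM in DMSO heads (SD, n = 3 each). These are transcript levels, and protein was not measured.

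The makeup of both pools differed as well. The share of fosl1a in the Fos sum was 6.25% ± 1.39 in 6PPD heads and 25.0% ± 5.09 in DMSO heads (SD, n = 3 each). The share of fosl2 was 20.4% ± 1.95 in 6PPD heads and 10.9% ± 1.50 in DMSO heads, although its own level was lower. The share of fosab was 60.6% ± 6.86 in 6PPD heads and 57.8% ± 4.90 in DMSO heads, a difference within the spread between libraries. In the Jun sum, jun made up 54.2% ± 3.70 in 6PPD heads and 36.3% ± 3.53 in DMSO heads, and junbb 30.9% ± 3.11 in 6PPD heads and 44.5% ± 1.72 in DMSO heads. The summed level of both JunB genes over that of jun was 0.761 ± 0.126 in 6PPD heads and 1.69 ± 0.244 in DMSO heads.

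**Figure D2:**
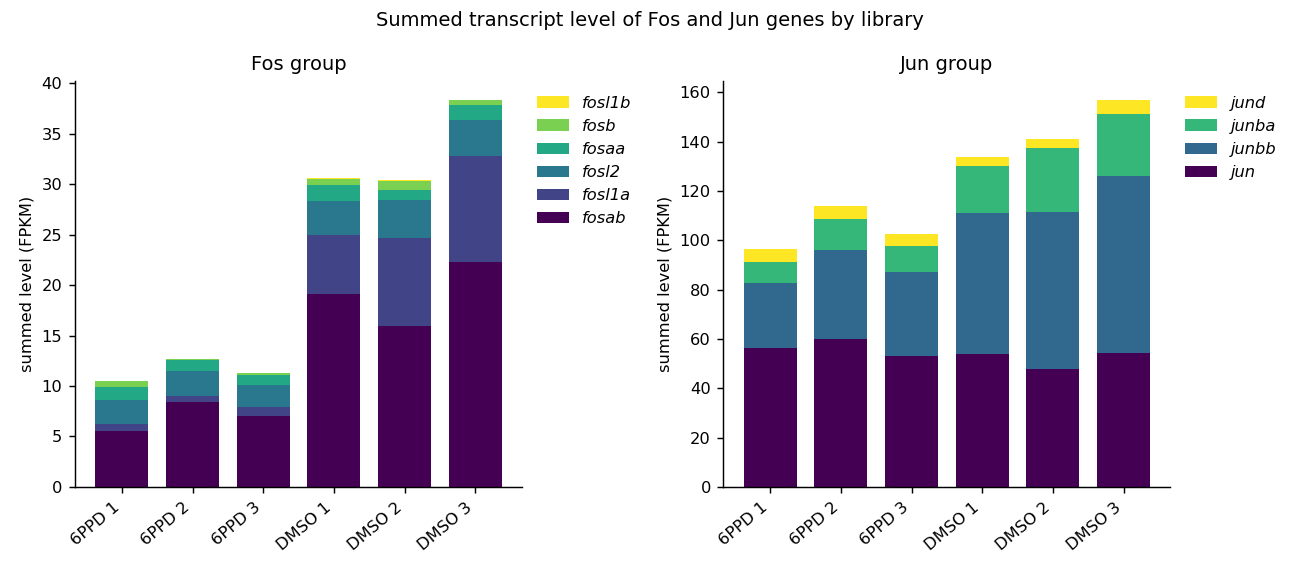
Summed level in FPKM (vertical axis, from 0) of 6 Fos genes and 4 Jun genes in each library, 6PPD libraries first, with the parts of the bars showing single genes. The Fos sum is 10.5 to 12.7 FPKM in 6PPD and 30.4 to 38.3 FPKM in DMSO libraries, and the jun part of the Jun sum is of similar height in both groups.

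Within the DMSO group the 7 lower genes did not all have the same highest library. DMSO replicate 3 was the highest control for 5 of them, fosl1a, fosab, atf3, junbb and egr1, and DMSO replicate 2 for the other two. Among all tested genes, DMSO replicate 3 was the highest control in 51.1%, so this count is near the background. DMSO replicate 1 was the highest control for 0 of the 7 and in 28.9% of all tested genes. It was the lowest control for each of the 7 but fosab. How often it was the lowest over all tested genes was not counted. Over the 6 fits with 1 library left out the log2 fold change ranged from -2.62 to -2.25 for fosl1a, from -1.46 to -1.19 for fosab and from -1.50 to -1.12 for atf3.

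Other immediate-early genes, which were not used to choose the 10, were lower in part. Of 76 gene symbols on this list 68 were in the table and 62 passed the filter. Of these, 13 fell and 0 rose (limma), 42 had a negative log2 fold change, and the median was -0.23, beside 0.06 over all tested genes, of which 1.15% were called lower and 2.26% higher. At an unadjusted p under 0.05, 34 of the 62 genes differed, beside 3113 of all 15320 tested genes. In 29 of the 62 the 6PPD libraries lay below the DMSO libraries without overlap, as in 9.18% of all tested genes. The list includes 7 called genes that an earlier look at these data had already shown to fall, namely cebpb, cebpd, ptgs2a, ptgs2b, nfkbiaa, socs3a and socs3b. Without them 6 of 55 genes fell, and the median was -0.13. Genes of this list beyond cebpb, cebpd, ptgs2b and ptgs2a were named after their values were seen.

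The largest falls outside the C/EBP genes were in nr4a1, egr2a and ptgs2b. The gene nr4a1 encodes an orphan nuclear receptor induced by many stimuli. Its level was 1.35, 1.70 and 1.2 FPKM in the 6PPD libraries, against 6.65, 4.28 and 8.96 FPKM in the DMSO libraries. It fell by 1.62 on the log2 scale (SE 0.21, limma adjusted p = 0.00563). The gene egr2a, which encodes a Krox20-type zinc finger factor related to egr1, measured 2.08, 1.73 and 2.10 FPKM in the 6PPD libraries, against 7.07, 5.23 and 8.88 FPKM in the DMSO libraries (log2 fold change -1.42 ± 0.17, limma adjusted p = 0.00354). In both genes the lowest control stood well above the highest 6PPD library. For scale, cebpb averaged 11.2 ± 0.353 FPKM in 6PPD heads and 53.0 ± 6.89 FPKM in DMSO heads (SD, n = 3 each), and ptgs2b, a prostaglandin synthase, 2.21 ± 0.256 FPKM in 6PPD heads and 7.64 ± 0.171 FPKM in DMSO heads.

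Smaller falls were found in ier2b (-0.50), a nuclear immediate-early protein gene, in klf11a (-0.44), a Krüppel-like factor gene, and in the antiproliferative gene btg2 (-0.36), all as log2 fold changes. The limma adjusted p was 0.0220 for ier2b, 0.0164 for klf11a and 0.0384 for btg2. The G-protein regulator gene rgs2 fell by 0.75, and passed the filter only through its DMSO level, at 0.532 ± 0.124 FPKM in 6PPD heads and 1.58 ± 0.235 FPKM in DMSO heads. Of the 13 genes, 7 were called in all 6 fits with 1 library left out: cebpb, cebpd, ptgs2a, ptgs2b, socs3a, egr2a and nr4a1. The calls of klf11a and ier2b were lost without 6PPD replicate 1, 6PPD replicate 3 or DMSO replicate 2, that of nfkbiaa without 6PPD replicate 3, and that of rgs2 without any one of the 6PPD replicates, while without a DMSO replicate rgs2 was under the filter. That of socs3b was lost without any one of the 6PPD replicates or DMSO replicate 2, and that of btg2 in every such fit but the one without DMSO replicate 3. The count of called genes was 7 without 6PPD replicate 3, 8 without 6PPD replicate 1 and 8 without DMSO replicate 2.

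Other classical immediate-early genes were not called, which does not mean that all were unchanged. Lower without overlap were gadd45bb (-0.64), sgk1 (-0.42) and ier2a (-0.49, log2 fold changes). Their limma adjusted p was 0.0542, 0.0552 and 0.0560. In 4 of the 62 tested genes of the list the 6PPD libraries lay above the DMSO libraries without overlap. The level of ier5 was 94.1 ± 5.07 FPKM in 6PPD heads and 97.1 ± 5.69 FPKM in DMSO heads, that of klf6a 27.0 ± 0.899 FPKM in 6PPD heads and 26.2 ± 0.772 FPKM in DMSO heads, and that of nr4a2a 21.7 ± 2.71 FPKM in 6PPD heads and 22.0 ± 2.70 FPKM in DMSO heads (SD, n = 3 each). The 95% interval of the log2 fold change was -0.23 to 0.14 for ier5, -0.13 to 0.21 for klf6a and -0.28 to 0.24 for nr4a2a. Within the Egr family, the log2 fold change was -0.41 for egr3 (limma adjusted p = 0.137) and 0.22 for egr4 (limma adjusted p = 0.471), while egr2b did not pass the filter. These genes were also named after their values were seen.

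**Figure D3:**
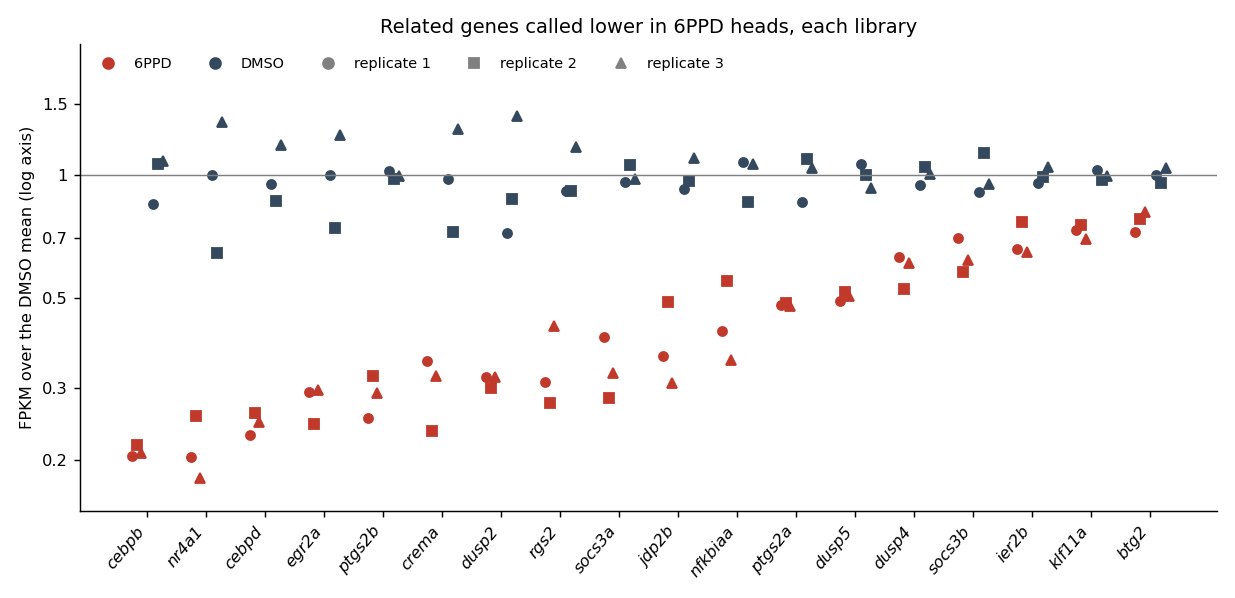
Level of each called gene among the other immediate-early, Jdp, CREM and MAP kinase phosphatase genes, as FPKM over the mean of the DMSO libraries (log axis), for the 6PPD and DMSO libraries. All 6PPD points lie under all DMSO points of the same gene, as in nr4a1, where the 6PPD libraries were at 1.2 to 1.70 FPKM.

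Of the remaining genes of the Fos, Jdp and Batf kinds, 3 passed the filter. The background was 1.15% of all tested genes called lower and 2.26% called higher, and of the 3 genes 1 fell, jdp2b. It encodes a Jun dimerization protein, which in mammals occupies AP-1 sites as a repressor. Its level was 1.34, 1.82 and 1.15 FPKM in the 6PPD libraries, against 3.45, 3.60 and 4.11 FPKM in the DMSO libraries (log2 fold change -0.96 ± 0.14, limma adjusted p = 0.00915). The c-Fos paralog fosaa measured 1.14 ± 0.193 FPKM in 6PPD heads and 1.35 ± 0.266 FPKM in DMSO heads and was not called (limma adjusted p = 0.632).

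Among 28 tested ATF, CREB and MAF genes, 1 fell and 0 rose, with a median log2 fold change of 0.07. Most of their products can pair with Fos or Jun proteins or share their sites. The 28 include atf7ip, which the deposited table assigns to no transcription factor family. The gene that fell was crema, which in mammals gives rise to the cAMP-inducible repressor ICER. It measured 2.63, 1.77 and 2.41 FPKM in the 6PPD libraries, against 7.35, 5.43 and 9.72 FPKM in the DMSO libraries (log2 fold change -1.36 ± 0.19, limma adjusted p = 0.00719). Its paralog cremb did not pass the filter, at 0.0347 ± 0.0186 FPKM in 6PPD heads and 0.458 ± 0.238 FPKM in DMSO heads, and was named after its values were seen. The MAF gene mafbb stood at -0.47 on the log2 scale without a call (limma adjusted p = 0.0741). At an unadjusted p under 0.05, 8 of the 28 differed, beside 3113 of all 15320 tested genes. Of all tested genes 1.15% were called lower and 2.26% higher. Over all other genes that the deposited table assigns to the bZIP family, 5 of 52 tested were called, all lower: cebpb, cebpd, crema, jdp2b and tefa. The call of tefa was lost without 6PPD replicate 2 or 3 or DMSO replicate 2. The bZIP family was added after the values were seen.

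The kinases and nuclear factors that act on these genes were measured for transcript level alone, and phosphorylation was not. The kinase list held MAP kinases, the kinases above them and some kinases below them, such as rps6ka1 and mapkapk2a. Of its 34 tested entries, a pair of which share the symbol raf1a, none was called by limma. At an unadjusted p under 0.05, 5 differed, the smallest p being those of mapk12a (log2 fold change -0.44) and mapk14b (0.39). Their median was 0.12. Of all 15320 tested genes, 3.41% were called and 3113 differed at an unadjusted p under 0.05. A further 3 genes of the kinase list were below the filter and not tested. Among these mapkapk2b alone was separate, lower in every 6PPD library than in any DMSO library. It averaged 0.382 FPKM in 6PPD heads, 3.4-fold lower than in DMSO heads, and was named after its values were seen. Of 5 tested genes of serum response factor and its partners 0 were called by limma and 1 differed at an unadjusted p under 0.05, elk4, a ternary complex factor gene (0.45, limma adjusted p = 0.0970). The serum response factor gene srfb measured 3.92 ± 1.02 FPKM in 6PPD heads and 3.17 ± 0.470 FPKM in DMSO heads. At the share of 3.41%, lists of 34 and 5 entries can hold no call, so lack of change is not read from these counts.

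Dual-specificity phosphatases switch MAP kinases off and are themselves induced by MAP kinase signals. Of 12 tested, 3 fell and 0 rose, where 1.15% of all tested genes were called lower and 2.26% higher. The ERK phosphatase gene dusp5 measured 4.87, 5.13 and 5.00 FPKM in the 6PPD libraries, against 10.5, 9.93 and 9.24 FPKM in the DMSO libraries (log2 fold change -0.86 ± 0.10, limma adjusted p = 0.00331). Levels of dusp4 were 5.39 ± 0.507 FPKM in 6PPD heads and 9.14 ± 0.448 FPKM in DMSO heads, with limma adjusted p = 0.0116. The call of dusp4 was lost without DMSO replicate 2. The third was dusp2, at 0.800 ± 0.0301 FPKM in 6PPD heads and 2.55 ± 0.907 FPKM in DMSO heads, which passed the filter through its DMSO level and lost the call in the fits without each 6PPD replicate and without DMSO replicate 2. By contrast dusp1 and dusp6 had log2 fold changes of -0.02 and -0.05, with 95% intervals of -0.20 to 0.16 and -0.23 to 0.13, and the difference between them and dusp5 was not tested. The smallest p among those not called was that of dusp22b (0.37, limma adjusted p = 0.173).

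Genes known as AP-1 targets in mammals changed in both directions. Of 43 found, 26 were tested and 17 were below the filter. Of the 26, 1 fell and 2 rose, and their median log2 fold change was -0.00. Among the 17, il1b and cxcl8b.1 were lower in 6PPD heads without overlap, and spp1 and plaub were higher without overlap. The level of il1b averaged 0.0769 FPKM in 6PPD heads and 1.16 FPKM in DMSO heads. These untested genes were named after their values were seen. Of all tested genes 1.15% were called lower and 2.26% higher. The matrix metalloproteinase gene mmp9 measured 1.13, 1.44 and 1.11 FPKM in the 6PPD libraries, against 3.08, 5.04 and 3.11 FPKM in the DMSO libraries (log2 fold change -1.07 ± 0.17, limma adjusted p = 0.0127). The cyclin D1 gene ccnd1 rose by 0.57 and the thioredoxin gene txn by 0.67 on the log2 scale, with limma adjusted p = 0.0102 and 0.0257. The calls of mmp9 and ccnd1 were lost without 6PPD replicate 1 or 3, that of ccnd1 also without DMSO replicate 2, and that of txn without 6PPD replicate 1 or 2 and without DMSO replicate 1 or 2. The symbol mmp13a stands for a pair of genes in the table, of which ENSDARG00000114451 measured 0.357, 0.405 and 0.371 FPKM in the 6PPD libraries, against 1.48, 6.38 and 1.40 FPKM in the DMSO libraries (limma adjusted p = 0.0809). DMSO replicate 2 was far above the other controls. The other mmp13a gene, ENSDARG00000012395, averaged 2.18 FPKM in 6PPD heads and 2.28 FPKM in DMSO heads (log2 fold change -0.04, limma adjusted p = 0.908). Both are also on the leukocyte list.

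**Figure D4:**
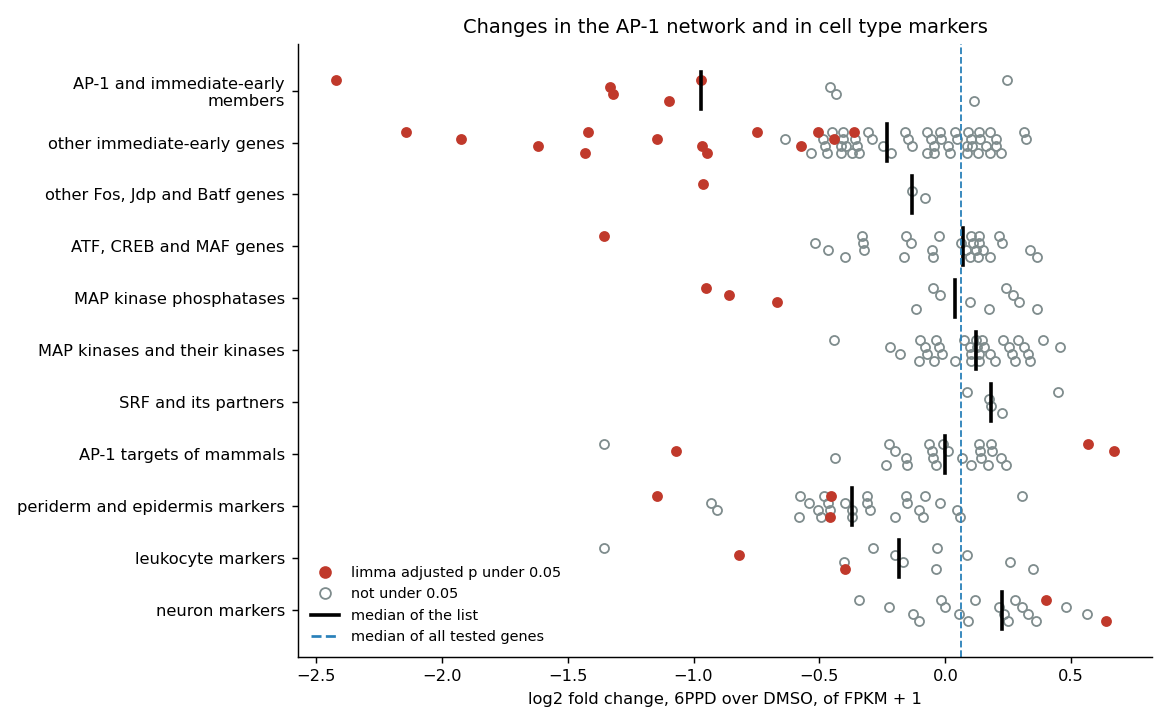
Log2 fold change of FPKM + 1, 6PPD over DMSO (horizontal axis), of every tested gene of the lists; filled points are called by limma, black bars are list medians and the dashed line is the median of all tested genes. Called genes of the first 5 lists lie left of 0, and the medians run from -0.97 for the 10 chosen genes to 0.22 for neuron markers.

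Some markers of other cell types differed between the groups. Of all tested genes 1.15% were called lower and 2.26% higher. Of 29 tested periderm and epidermis markers 3 fell and 0 rose, with a median log2 fold change of -0.37. These were the claudin gene cldnb, at 30.6 ± 1.51 FPKM in 6PPD heads and 68.9 ± 5.15 FPKM in DMSO heads, krt1-19d (-0.46) and cldne (-0.46). The keratin gene krt17 stood at -0.93 on the log2 scale without a call (limma adjusted p = 0.0929). Of the 29, 26 had a negative log2 fold change and 3 a positive one. The highest was that of tp63 (0.30, limma adjusted p = 0.154), which was named after its values were seen. Of 12 tested leukocyte markers 2 fell, apoeb (-0.40) and lysozyme lyz (-0.82), with a median of -0.19, and the summed FPKM of all 21 genes found was 85.2 to 92.1 in 6PPD and 100.3 to 125 in DMSO libraries. The gene apoeb alone made up 43.1 to 46.6 FPKM of that sum in 6PPD and 54.8 to 64.9 FPKM in DMSO libraries. The macrophage gene mfap4 (0.35) and cxcr4b (0.26) were higher in every 6PPD library than in any DMSO library without being called (limma adjusted p = 0.213 and 0.217), and were named after their values were seen. No defining marker of these lists was at 0 in all libraries, but krt93 averaged 0.0137 FPKM in 6PPD heads and 0.00730 FPKM in DMSO heads. Of 20 neuron markers 2 rose, elavl3 (0.64) and snap25a (0.40), with a median of 0.22. Of the 20, 14 had a positive log2 fold change and 6 a negative one. The lowest were those of elavl4 (-0.34) and snap25b (-0.23), neither of them called (limma adjusted p = 0.370 and 0.271). Both were named after their values were seen. The calls of krt1-19d, cldne, apoeb, lyz and snap25a were each lost in 5 of the 6 fits with 1 library left out and that of elavl3 in 4.

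The other marker lists had no call by limma, where 3.41% of all tested genes were called. At an unadjusted p under 0.05, 3113 of all 15320 tested genes differed. Among 20 markers of neural progenitors and glia 8 did, with the smallest p in gfap (-0.50) and glula (-0.55). The median of the 20 was 0.00, with 10 log2 fold changes above 0 and 10 below. Of those above 0 the smallest p was that of her4.1 (0.35), which was named after its values were seen. Among 18 markers of muscle 3 differed, with the smallest p in myhz2 (-0.57) and acta1a (0.37). Of the 18, 16 had a negative log2 fold change and 2 a positive one, with a median of -0.18, beside 0.06 over all tested genes. Among 12 markers of red blood cells 2 differed, hbbe2 (-0.38) and alas2 (-0.27). Of the 12, 9 had a negative log2 fold change and 3 a positive one, with a median of -0.11.

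The 10 genes together summed to 124, 145 and 134 FPKM in the 6PPD libraries, against 190, 202 and 235 FPKM in the DMSO libraries. The periderm and epidermis markers summed to 7571, 6028 and 6798 FPKM in the 6PPD libraries, against 11900, 7937 and 6897 FPKM in the DMSO libraries, with DMSO replicate 3 inside the 6PPD range. That sum is carried by a few keratins, and the mean log2(FPKM + 1) of the 29 tested markers did not overlap, at 5.51, 5.19 and 5.37 in the 6PPD libraries, against 5.96, 5.66 and 5.53 in the DMSO libraries. The level of cldnb in DMSO replicate 3 was 63.0 FPKM, also above all 6PPD libraries. The part of these cell types in the levels of the 10 genes was not tested.

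**Figure D5:**
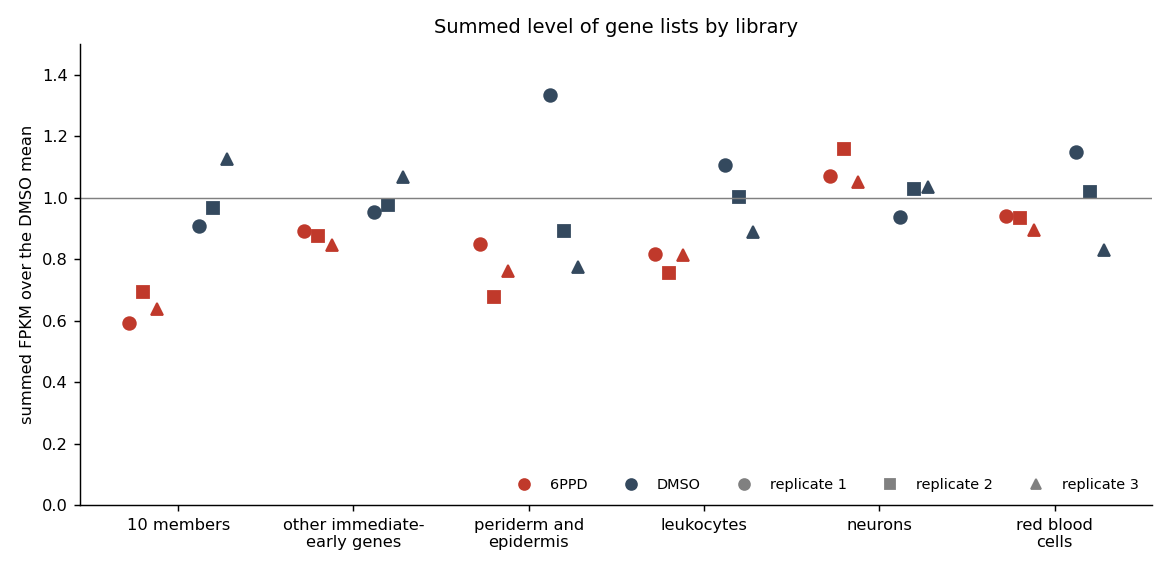
Summed FPKM of gene lists in each library over the mean of the DMSO libraries (vertical axis, from 0), 6PPD left of DMSO. The 10 genes lie lowest in the 6PPD libraries (124 to 145 FPKM) and highest in DMSO replicate 3 (235 FPKM), and the skin marker sums of the 6PPD (6028 to 7571 FPKM) and DMSO libraries (6897 to 11900 FPKM) overlap.

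The genes whose levels ran most like those of 4 chosen members were sought by Pearson's r of log2(FPKM + 1) over all 6 libraries, as a description of a pattern that the group difference dominates. For fosl1a they were the nuclear receptor gene nr2f1b (r = 0.998), the acyl-CoA synthetase gene acsl4a (0.997) and kctd15a (0.995). For fosab they were epgn, which encodes the EGF receptor ligand epigen (0.998), tdrd7b and the pigment cell gene pmelb (0.986 each). For junbb they were rad17 (0.996), lratb.1 (0.992) and ewsr1b (0.989), and for egr1 gmeb1 (0.977), toporsa (0.977) and tpcn1 (0.974). A high r did not mean a difference of like size. The level of epgn averaged 3.04 FPKM in 6PPD heads and 7.13 FPKM in DMSO heads. That of nr2f1b averaged 14.1 FPKM in 6PPD heads and 16.1 FPKM in DMSO heads. All genes of this paragraph were chosen for following members picked on the same contrast, so their group differences carry no test.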

How the data were processed

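The data are 6 poly(A) RNA libraries from zebrafish heads, grouped by the treatment in their labels. The authors deposited FPKM values for each gene, with symbols, GRCz11 positions and a transcription factor family. Of tools, fastp, HISAT2, featureCounts and StringTie appear in the submitters' processing notes, with no version or role. Read depth is not part of the table, and no count model was used. Genes averaging 1 FPKM or more were fitted by limma 3.58.1 under R 4.3.3, after taking log2(FPKM + 1) (intensity trend, 5.56 prior and 4 residual degrees of freedom), without further terms, and p-values were Benjamini-Hochberg adjusted over 15320 genes. The procedure was tested on simulated data.

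The members, the 13 other gene lists and the tests were chosen with earlier results of these data known. Named genes are the 10 members, up to 4 genes with the smallest p of each list with at least 3 calls and otherwise 2, all calls of lists with at most 5, and the 3 genes most like each of fosl1a, fosab, junbb and egr1. Alternatives were other pseudocounts, filters, scalings and variance settings, a replicate block and leaving out each library. Gene and promoter sequences were not used here.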

Additional observations from a re-analysis of the deposited data

How the results depend on the processing

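Over 16 alternatives the 9 tested members kept the sign of their log2 fold change in every fit that held them. The 5 members called lower remained 5 in the 6 fits with 1 library left out, and were 6 with the replicate block, where egr1 was added. With a filter at a mean of 5 FPKM, fosl1a, fosl2 and jund were left out, and 4 of the 6 members tested were called lower. The members were picked on this contrast, so nothing is read from these counts. The labels do not say whether the replicate numbers pair the samples. Deviations of same-numbered libraries correlated at 0.03, 0.18 and -0.03, and those of other-numbered libraries at -0.18 to 0.17. With 3 libraries per group these values cannot decide the question. With the block 281 genes were called higher and 174 lower, against 346 and 176 without it, and 12 other immediate-early genes against 13. With no filter on low values only 13 genes were called higher and 13 lower, 1 of them a member (fosl1a) and 4 other immediate-early genes, and more genes, most of them near 0, were tested. Without the intensity trend 214 genes were called higher. After quantile normalization 20 other immediate-early genes were called lower. Leaving out 1 library gave 85 to 805 genes called higher, 72 to 325 called lower and 7 to 14 other immediate-early genes called lower. The extremes were 85 without 6PPD replicate 1, 72 without 6PPD replicate 3, and 805 and 325 without DMSO replicate 3. The share of higher genes among all calls, 66.3%, was 50.5% with median-ratio scaling, 51.5% with cyclic loess, 52.9% with quantile normalization and 75.1% on the TPM scale. It was 50% with no filter and 46.2% without 6PPD replicate 1, where 85 genes were called higher and 99 lower. The call of fosl2 was gained under median-ratio scaling, quantile normalization, cyclic loess and without the trend. For the other 56 named genes, 732 of 873 values kept their status, which includes genes called in neither fit. A call was lost in 120 values and gained in 21, and 0 of the called ones reversed. The cause of these changes was not tested. Depth is unknown, so counting error of low genes such as fosb cannot be given.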

Other observations

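Within 100 kb of a member on GRCz11 lay 56 other genes, 32 of which passed the filter, and 1 was called by limma, jdp2b, which lies 32.2 kb from fosab on chromosome 20. Of all tested genes 3.41% were called. The AP-1-like gene batf, 18.1 kb from fosab, and batf3, 12 kb from atf3, were below the filter in both groups. The genes tmed10 and eif2b2, also beside fosab, had log2 fold changes of -0.14 and -0.12 (limma adjusted p = 0.324 and 0.388).

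A further Jun-type gene in the table, june, measured 3.72, 4.92 and 4.09 FPKM in the 6PPD libraries, against 4.05, 5.78 and 6.62 FPKM in the DMSO libraries. The groups overlapped, and it was not called (log2 fold change -0.29, limma adjusted p = 0.351). The Fos-type gene fosl2l did not pass the filter, at 1.05 ± 0.444 FPKM in 6PPD heads and 0.664 ± 0.452 FPKM in DMSO heads (SD, n = 3 each). Both were named after their values were seen.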
